A study of Arabidopsis thaliana with 12 samples.

Results

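Transcript levels were compared between wild-type Arabidopsis seedlings of the accession Col-0 collected 60 min after cordycepin was given and Col-0 seedlings collected at 0 min, before treatment. The comparison rests on 6 of the 12 arrays of the series, 3 at 60 min and 3 at 0 min, and on 22746 of the 22810 probe sets, all except the Affymetrix controls. All seedlings were 14 days old and had been grown on plates under long days, and the treated ones received 150 mg/l cordycepin. Total RNA of whole seedlings was labelled with biotin and hybridised to a 1-colour Affymetrix array, so each value mixes all organs, and fewer cells of a type and less RNA per cell cannot be told apart. The other 6 arrays, of the xrn3-8 line at the same times, entered the fit and served for 1 comparison at the end. The labels list no mock-treated seedlings at 60 min, so cordycepin, 60 min of elapsed time and handling cannot be told apart in any value below.

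Cordycepin is 3'-deoxyadenosine, a nucleoside that lacks the hydroxyl group needed to extend an RNA chain. Once new synthesis is blocked, transcripts that are degraded quickly are lost before those that are degraded slowly, which is why the drug is widely used in plants to compare mRNA stability. Short-lived plant mRNAs are known to include many transcription factors, stress-induced genes and early hormone-response genes, while mRNAs of basic metabolism and the cytoskeleton are often long-lived. An array normalised to its own overall signal gives relative levels: it cannot show whether the total amount of mRNA changed.

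Of the tissue marker lists, 2 leaf genes, 1 root gene and 1 pollen gene were measured. Rubisco activase, RCA, which marks green tissue, averaged 12.81 ± 0.07 log2 signal at 60 min and 12.83 ± 0.02 at 0 min, and the root beta-glucosidase gene PYK10 averaged 11.29 ± 0.08 at 60 min and 11.23 ± 0.03 at 0 min (SD, n = 3 arrays each). The other leaf marker, the antenna gene LHCB4.2, averaged 10.53 at 60 min and 11.80 at 0 min, high at both times but 1.27 lower after treatment. The pollen marker AT5G45880 stood near background, at 3.18 at 60 min and 3.04 at 0 min. No marker of the flower and seed lists had a named probe set. Arrays of 1 group correlated at 0.996 to 0.998 and arrays of different groups at 0.971 to 0.973. The gap between 3' and 5' probe sets of a control gene is a sign of RNA integrity. For actin it was 0.90 to 1.03 at 60 min and 0.90 to 0.99 at 0 min. The other gaps did not overlap between the times: GAPDH had -0.27 to -0.21 at 60 min and -0.20 to -0.06 at 0 min, and ubiquitin 0.10 to 0.17 at 60 min and -0.12 to 0.06 at 0 min. The part of these gaps in the results was not tested.

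In all, 10534 probe sets, or 46.3%, passed an adjusted p of 0.05 in limma's moderated test over all 22746 probe sets. More rose than fell, 5973 (26.3%) against 4561 (20.1%), but the falls were far larger. Falls that reached 2-fold were called for 1187 probe sets (5.22%) and rises of that size for 122 (0.536%). At a 4-fold limit 262 were lower and 4 higher, and 55 probe sets fell 8-fold or more. Every 1 of the 1187 and of the 122 had 3 arrays at 60 min that did not overlap the 3 at 0 min, as had 53.7% of all probe sets. Among the 13355 genes with a probe set of their own, 600 fell 2-fold or more, 123 of them 4-fold or more, and 74 rose 2-fold or more. The lowest log2 difference was -4.54, the highest 2.72 and the median of all probe sets 0.07, with a median SE of 0.10.

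**Figure D1:**
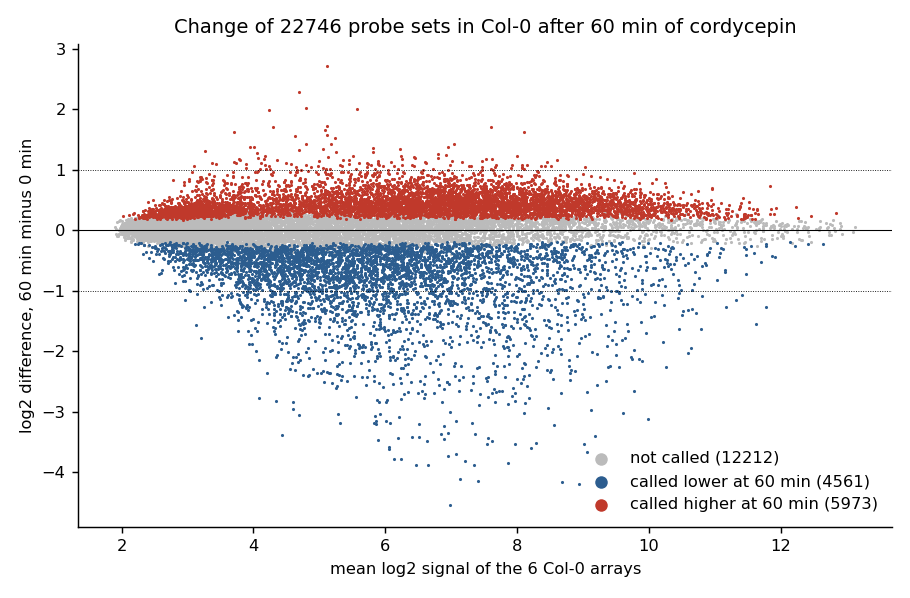
Each point is 1 probe set. The x axis is its mean log2 signal over the 6 Col-0 arrays and the y axis the log2 difference, 60 min minus 0 min; dotted lines mark 2-fold changes and colours the calls. Falls reach -4.54 and spread widely, while the 5973 rises form a narrow band that seldom passes 1.

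Where a probe set could show a fall depended on its signal. Probe sets were split into 5 bins of equal size by signal. In the dimmest bin, with a mean of 1.93 to 2.86 over all 12 arrays, 2% were called lower and 7.03% higher, and 0.0220% were at least 2-fold lower. In the brightest, from 7.24 upward, 22.7% were called lower, 47.5% higher and 8.09% at least 2-fold lower. The middle bin, from 3.92 to 5.62, had the highest share of calls lower, 33.4%, and the only negative median, -0.05. A dim probe set has little room to fall, so an uncalled change there does not show a stable transcript.

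The zero point of these values is open, and the small changes depend on it. Signals of the 27 Bacillus subtilis control probe sets had array medians of 3.57 to 3.74 at 60 min and 3.24 to 3.3 at 0 min, close to the lower quartile of the Col-0 arrays (3.03). Array medians of 7 genes often used as stable references were 8.39 to 8.51 at 60 min and 7.90 to 8.10 at 0 min. With every array centred on these 7 genes the median over all probe sets was -0.38, and 2.94% of 14272 calls were then higher, against 56.7% as deposited. The Bacillus subtilis controls gave -0.29 and 6.59% of 12295 calls, the hybridization controls -0.23 and 7.38% of 6473, and the array median, which moved all values up by 0.18, gave 0.25 and 78.8% of 15748. Called lower under all 5 scalings were 3336 probe sets, and called higher under all 5 were 418. All 60 genes of the largest falls and rises, with and without a symbol, are among these.

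The reference genes themselves did not move together. AT5G15710 fell by 1.03, GAPC2, the gene of a cytosolic glyceraldehyde-3-phosphate dehydrogenase, differed by 0.03 with an adjusted p over the threshold, and the other 5 rose as deposited, up to 0.68 for AT5G46630. The 5 ubiquitin control probe sets of the array differed by -1.40 to -1.10 and all 3 arrays at 60 min lay below all 3 at 0 min in each. The 6 actin control probe sets went the other way, from 0.37 to 0.61, without overlap. These control probe sets were not tested.

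The most strongly reduced gene was AT5G61590, annotated as DEWAX, an ERF-type transcription factor that represses cuticular wax synthesis. Its log2 signals were 4.98, 4.66 and 4.52 at 60 min, against 9.42, 9.35 and 9.0 at 0 min. The 2 sets of arrays stand more than 4 log2 units apart, a 23.2-fold lower level at 60 min (-4.54 ± 0.14 SE, limma adjusted p = 3.07e-13). AT3G19680 had 6.69, 6.61 and 6.49 at 60 min, against 10.73, 10.81 and 10.74 at 0 min (-4.16 ± 0.09, adjusted p = 1.62e-14). It was among the brighter transcripts of the array at 0 min and was still above the array median at 60 min. AT3G06070 (-4.14 ± 0.10), AT5G01740 (-4.10 ± 0.09), AT5G07580 (-3.88 ± 0.11), AT5G25280 (-3.88 ± 0.10), AT4G10270 (-3.79 ± 0.13) and AT3G55840 (-3.70 ± 0.15) came next. AT2G39980, AT4G28240, AT5G52020, AT5G62280, AT1G69760, AT5G44680 and AT2G25250 completed the 15 largest falls, between -3.48 and -3.20. None of these 15 carries a symbol in the gene table used, and apart from the synonym of AT5G61590 no role is given for them here. AT5G61590 and AT5G07580 were the only 2 measured of 17 listed stress-induced ERF and DREB factors, and both fell, against 20.1% of all probe sets. Both are among these 15 falls chosen by size, so the list is not a separate result. Of the probe sets unnamed here, the most reduced fell by 4.19 and the next by 3.87.

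If synthesis had stopped at once and decay were exponential, a fall of that size as deposited would equal 1 halving of AT5G61590 every 13.2 min, with 12 to 13.8 min over the 5 scalings. The same arithmetic gives 14.4 min for AT3G19680 (13.0 to 15.1 min), 23.4 min for STZ (19.9 to 25.2 min) and 31.1 min for BZIP60 (25.2 to 34.2 min). With a single time after treatment, neither assumption could be checked, so these are conversions of the fold change and not measured half-lives.

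**Figure D2:**
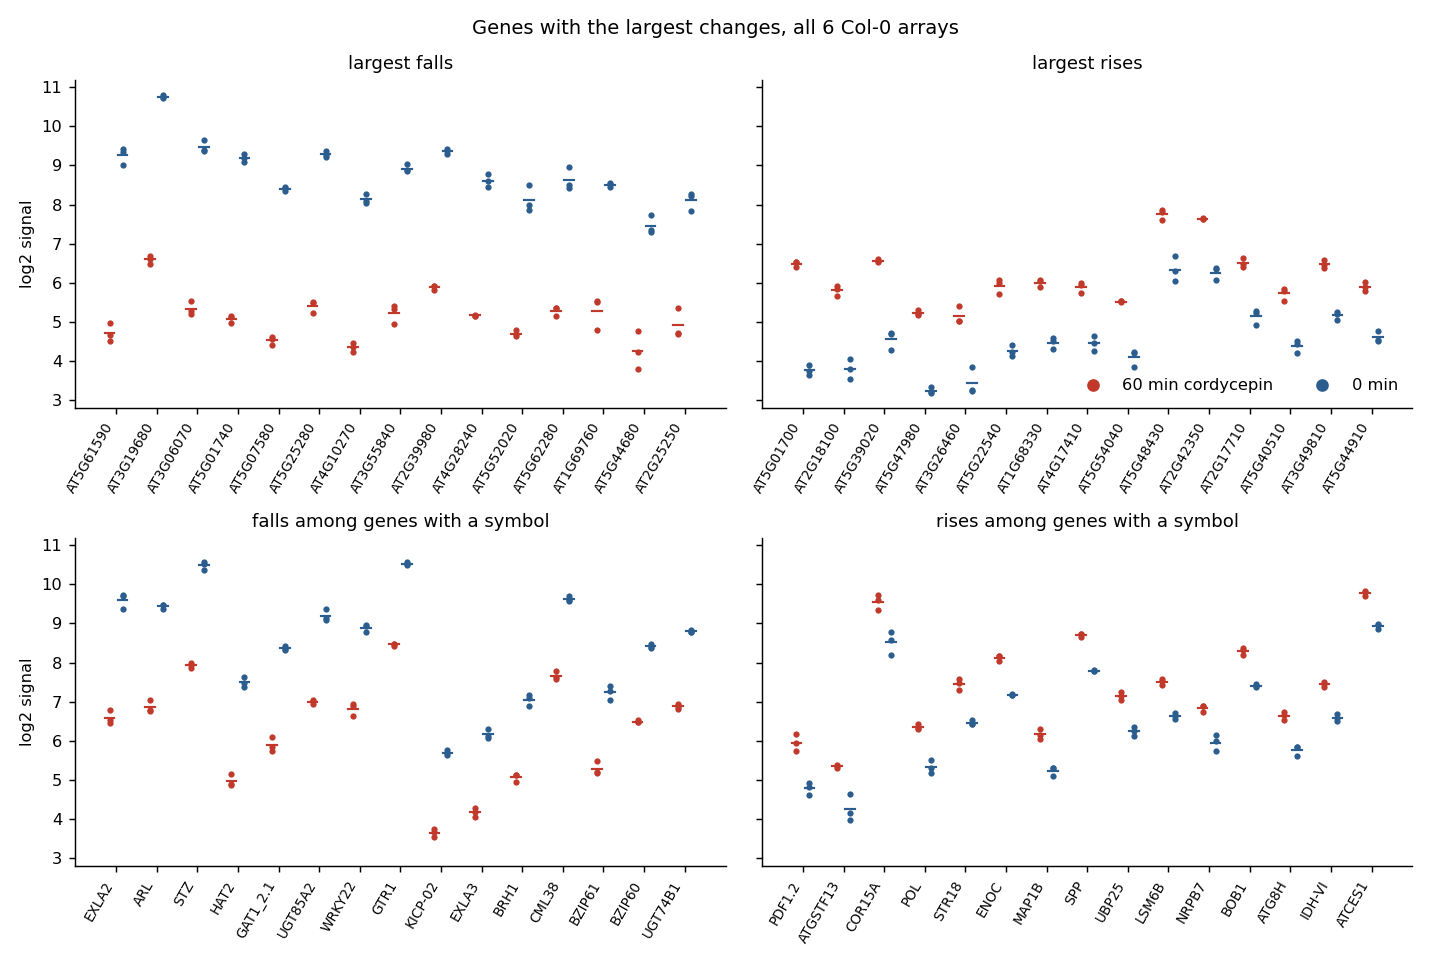
Log2 signal (y axis) of the 60 genes named by rule on each Col-0 array, 60 min of cordycepin in red to the left and 0 min in blue to the right of each gene; horizontal bars are means of 3 arrays. In all 4 panels the 2 colours do not overlap, which the rule required, and the gaps are 1.92 to 4.54 units between means for the falls and 0.85 to 2.72 for the rises.

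Several of the largest falls with a symbol were of transcription regulators. STZ, also known as ZAT10, a zinc finger repressor induced by cold, drought and wounding, had 7.95, 7.98 and 7.85 at 60 min, against 10.37, 10.51 and 10.58 at 0 min (-2.56 ± 0.08, adjusted p = 3.84e-13). HAT2, an auxin-inducible homeodomain-leucine zipper factor, fell by 2.53 ± 0.11. Of the other falls named by symbol, GAT1_2.1, annotated as a glutamine amidotransferase, was at -2.47 on its brighter probe set and KICP-02 at -2.05. A further probe set of GAT1_2.1 had a log2 difference of 0.08 and was not called. Of 7 WRKY genes, the factors best known from immune signalling, 4 fell and 0 rose, with a median of -0.27. Over all probe sets 20.1% fell and 26.3% rose. With the array median 2 of the 7 were called lower and 1 higher, and their median was -0.09. WRKY22, which acts downstream of flagellin perception, led with 6.64, 6.93 and 6.88 at 60 min, against 8.79, 8.94 and 8.95 at 0 min (-2.08 ± 0.12). ZAP1 (-1.09) and WRKY6 (-0.40) fell less, while WRKY53, a regulator of leaf senescence, had a log2 difference of -0.03 and WRKY20 of -0.11.

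Among 14 bZIP genes, 6 fell and 1 rose, against 20.1% and 26.3% of all probe sets, with a median of -0.10 that turned to 0.08 with the array median. The falls included BZIP60 and BZIP28, membrane-bound factors of the unfolded protein response. BZIP60, whose mRNA is spliced under endoplasmic reticulum stress, had 6.53, 6.47 and 6.47 at 60 min, against 8.38, 8.40 and 8.48 at 0 min (-1.93 ± 0.08). BZIP28, which is released from its membrane by proteolysis, fell by 1.16 ± 0.08, and BZIP61 (-1.96 ± 0.12) and BZIP53 (-0.92) fell too. The 1 rise was that of bZIP44, which was 0.48 higher, and BZIP17 had a log2 difference of 0.20 and was not called.

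The 6 bHLH genes measured belong largely to the iron-deficiency pathway, and they split. bHLH121, which acts upstream in iron signalling, had 6.29, 6.47 and 6.36 at 60 min, against 7.42, 7.42 and 7.30 at 0 min (-1.01 ± 0.08, adjusted p = 3.70e-08). Its interaction partners went the other way as deposited: ILR3 had 9.58, 9.46 and 9.54 at 60 min and 8.86, 8.97 and 8.99 at 0 min (0.59 ± 0.08), and bHLH115 rose by 0.54 ± 0.09. Over the 5 scalings their values ran from 0.09 to 0.76. In all, 3 of the 6 rose and 2 fell as deposited, against 26.3% and 20.1% of all probe sets. Under the Bacillus subtilis, hybridization or reference gene scalings 0 were called higher, against 3 with the array median.

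Genes of the core hypoxia response, induced in most Arabidopsis cells when oxygen is low, stood out by the size of their falls. Of 19 listed loci, 6 had a named probe set. Of these, 5 fell, against 20.1% of all probe sets, and 4 fell by more than 4-fold. Their median was -2.26 beside 0.07 for all probe sets. HRA1 (AT3G10040), a trihelix factor that restrains the hypoxia response, had 4.47, 4.38 and 4.48 at 60 min, against 7.36, 7.66 and 7.75 at 0 min (-3.15 ± 0.11, adjusted p = 2.08e-12). AT4G10270 had 4.45, 4.36 and 4.23 at 60 min, against 8.08, 8.28 and 8.04 at 0 min. The groups are about 3 to 4 units apart in both. AT1G33055 (-2.43 ± 0.12) and AT4G24110 (-2.08 ± 0.15) followed, AT5G10040 fell by 0.60 at a background-level signal, and AT3G27220 differed by -0.01. The median stayed between -2.71 and -2.08 over the 5 scalings.

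**Figure D3:**
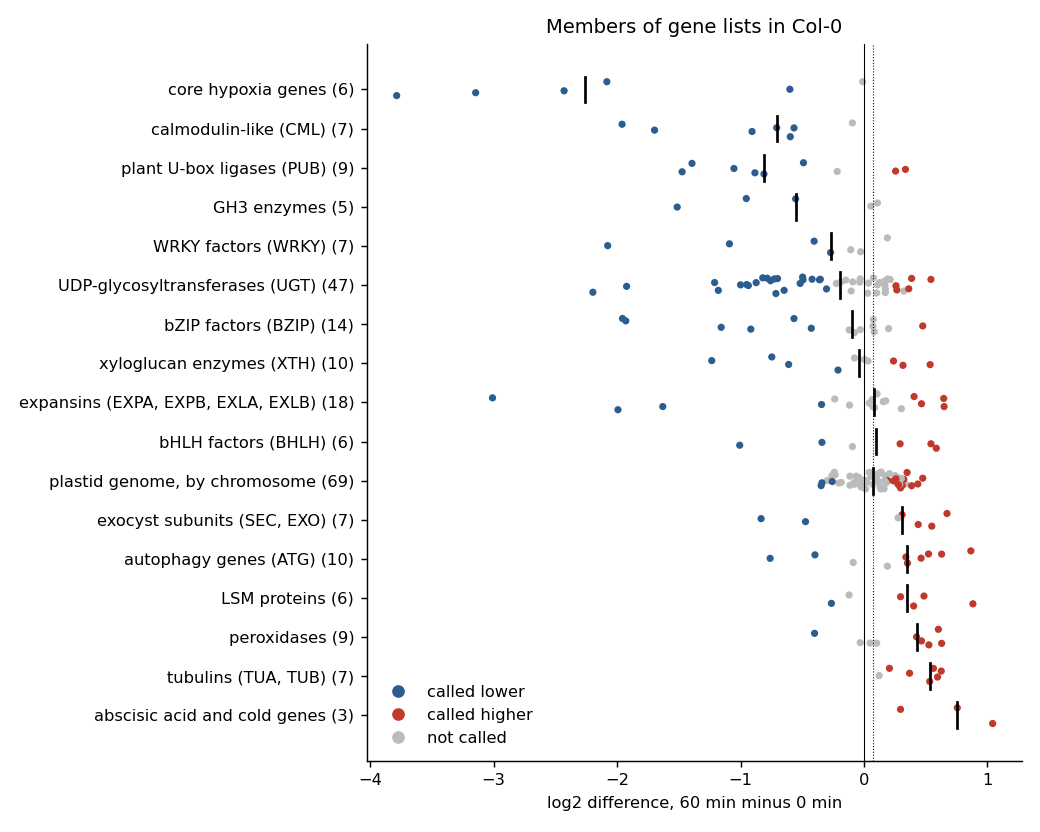
Log2 difference, 60 min minus 0 min, of every measured member of 17 gene lists (number of members in brackets); each point is 1 gene, coloured by its call, the short black bar is the list median and the dotted line the median of all probe sets (0.07). Hypoxia, calmodulin-like and U-box lists lie mostly left of 0, tubulins and the cold list right of it, and expansins and bHLH factors spread to both sides.

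Calmodulin-like proteins bind calcium and pass stress and touch signals on, and 6 of 7 fell, against 20.1% of all probe sets, and 0 rose, against 26.3%. Their median was -0.71 (-1.16 to -0.53 over the 5 scalings). CML38, induced by wounding and hypoxia, had 7.79, 7.57 and 7.64 at 60 min, against 9.71, 9.57 and 9.60 at 0 min (-1.96 ± 0.10). CML37 (-1.70 ± 0.10), CML30 (-0.91 ± 0.10), CML41 (-0.71) and CML42 (-0.60) fell as well, and CML43 had a log2 difference of -0.09. Of the calmodulin-binding IQD scaffolds, 4 of 15 were lower, led by IQD22 (-1.86 ± 0.09), and 3 higher, led by IQD31 (0.59), close to the shares over all probe sets.

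GH3 enzymes, products of early auxin genes, conjugate auxin and other hormones to amino acids, and 3 of 5 fell and 0 rose. Over all probe sets 20.1% fell and 26.3% rose. GH3.3 had 5.73, 5.63 and 5.46 at 60 min, against 6.84, 7.23 and 7.29 at 0 min (-1.51 ± 0.13), WES1 fell by 0.95 ± 0.10 and GH3.17 by 0.55 ± 0.09. The 2 members that did not pass, GH3.1 and GH3.9, had mean signals of 2.95 and 2.86 at 60 min, against 2.89 and 2.75 at 0 min, below the lower quartile of the arrays. Of 7 Aux/IAA repressors, which block auxin-responsive transcription, IAA29 (-1.03 ± 0.13) and IAA18 (-0.45) fell and 1 dim member rose. ARL, an ARGOS-like gene that promotes cell expansion, fell by 2.57 ± 0.09, and BRH1, a brassinosteroid-responsive RING-H2 gene, by 1.99 ± 0.09. The 6 cytokinin response regulators measured were all near background, and 1 was called.

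Plant U-box ligases, several of which dampen immune responses, fell in 6 of 9 cases and rose in 2, with a median of -0.81 (-1.26 to -0.63 over the 5 scalings); over all probe sets 20.1% fell and 26.3% rose. PUB23 had 8.00, 7.99 and 7.93 at 60 min, against 9.47, 9.27 and 9.36 at 0 min (-1.39 ± 0.08), and its close relative PUB22 fell by 1.05 ± 0.10. PUB26 (-1.47 ± 0.10), PUB43 (-0.88) and PUB25 (-0.81) fell too. The conjugating enzymes, which hand ubiquitin to such ligases, had 2 lower and 4 higher of 12, led by UBC27 (0.64), with a median of 0.18 that was negative under the 3 control and reference gene scalings. Of 12 ubiquitin-specific proteases, which remove ubiquitin, 4 fell and 2 rose; these counts and those of the conjugating enzymes are near the shares over all probe sets. UBP15, which promotes cell proliferation in leaves, had 5.01, 5.33 and 5.17 at 60 min, against 6.78, 6.66 and 6.61 at 0 min (-1.51 ± 0.09), whereas UBP25 had 7.03, 7.14 and 7.24 at 60 min, against 6.12, 6.24 and 6.36 at 0 min (0.90 ± 0.08).

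UDP-glycosyltransferases attach sugars to hormones and secondary metabolites, and 22 of 47 fell and 5 rose, against 20.1% lower and 26.3% higher among all probe sets. Only 17 of the 47 had a mean signal above the overall median. UGT74B1, which glucosylates the precursor of glucosinolates, the sulfur defence compounds of the mustard family, had 6.95, 6.87 and 6.82 at 60 min, against 8.83, 8.79 and 8.79 at 0 min (-1.92 ± 0.08). GTR1, a glucosinolate transporter, had 8.48, 8.43 and 8.48 at 60 min, against 10.49, 10.57 and 10.52 at 0 min (-2.06 ± 0.07). Both sets of values were tight, with ranges under 0.15 within a group. UGT85A2 (-2.20 ± 0.09), UGT88A1 (-1.21 ± 0.09), UGT73B1 (-1.18), UGT76E1 (-1.0) and UGT84A3 (-0.95) also fell, and UGT71C1 (0.54) rose most. The list median of -0.19 was -0.01 with the array median, where 17 were called lower and 17 higher, and -0.64 with the reference genes. Among 24 cytochrome P450 genes, all of the CYP71B type where called, 5 fell, led by CYP71B26 (-1.42), and 2 rose, led by CYP71B37 (0.90). Glutathione transferases had 2 lower and 4 higher of 14, with GSTU16 at -0.87 and ATGSTF13 at 1.09 ± 0.12.

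Among cell wall genes, all 3 expansin-like A genes fell, out of 18 expansin genes with 4 lower and 4 higher. EXLA2 had 6.79, 6.54 and 6.45 at 60 min, against 9.36, 9.71 and 9.74 at 0 min (-3.01 ± 0.11, adjusted p = 1.44e-12), EXLA3 fell by 1.99 ± 0.14, and EXLA1, the brightest of the family, had 10.12, 10.04 and 9.77 at 60 min, against 11.60, 11.65 and 11.57 at 0 min (-1.63 ± 0.10). Of the other 15 expansin genes, which include the alpha-expansins that loosen the wall during growth, EXPA8 fell by 0.34, a call lost when any of 5 of the 6 arrays was left out (-0.37 to -0.29), and EXPA4 (0.65), EXPA16 (0.65), EXPA7 (0.47) and 1 more rose. Xyloglucan-modifying enzymes were lower in 4 of 10 cases, led by XTH16 (-1.23 ± 0.10), EXGT-A3 (-0.75) and XTH33 (-0.61), and higher in 3, led by XTH20 (0.54). NET4B, which links actin filaments to the vacuole, fell by 1.55 ± 0.11. Among TON1-recruiting motif proteins, which organise cortical microtubules, 4 of 14 fell and 2 rose, from TRM26 (-1.51 ± 0.12) to TRM31 (1.12 ± 0.12). Beside the counts of expansins, xyloglucan enzymes and TON1-recruiting motif proteins, the shares over all probe sets were 20.1% lower and 26.3% higher. Under the Bacillus subtilis, hybridization and reference gene scalings 0 expansins and 0 xyloglucan enzymes were called higher, and 1 TON1-recruiting motif protein was. With the array median 11 expansins and 3 xyloglucan enzymes were called higher.

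Of 5 photosynthesis genes measured, 1 fell and 0 rose, against 20.1% and 26.3% of all probe sets, so the share that fell was that of all probe sets. LHCB4.2, which encodes the minor photosystem II antenna protein CP29, had 10.67, 10.50 and 10.43 at 60 min, against 11.69, 11.92 and 11.79 at 0 min (-1.27 ± 0.10, adjusted p = 1.56e-08). Its paralogue LHCB4.1 had 12.45, 12.45 and 12.43 at 60 min and 12.33, 12.41 and 12.42 at 0 min (0.06 ± 0.07), and LHCB4.3 had a log2 difference of 0.16 ± 0.11. The log2 differences of these paralogues were more than 1 unit apart on the same arrays. The Calvin cycle genes SBPASE (0.04) and PRK (0.09) and the photosystem II genes PSBY (-0.20) and PSBW (0.08) did not pass. Chlororespiratory reduction genes, needed for the plastid NDH complex, fell in 4 of 5 cases, against 20.1% of all probe sets, led by CRR42 (-1.30 ± 0.11). With the array median 2 of the 5 were called lower, and their median of -0.34 became -0.16. Of 69 genes of the plastid genome, which is transcribed in the organelle, 11 rose and 3 fell, against 26.3% and 20.1% of all probe sets. They had a range of -0.35 to 0.48 and a median of 0.08, close to that of all probe sets. The histone HTB2 of the H2B class fell by 1.32 ± 0.10, and 2 of 5 histone genes fell in all.

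The rises were led by AT5G01700, with 6.53, 6.39 and 6.52 at 60 min, against 3.65, 3.74 and 3.89 at 0 min (2.72 ± 0.08, adjusted p = 2.07e-13). AT2G18100 (2.02 ± 0.12), AT5G39020 (2.0 ± 0.10), AT5G47980 (1.99 ± 0.10), AT3G26460 (1.70 ± 0.15), AT5G22540 (1.67 ± 0.13) and AT1G68330 (1.53 ± 0.12) followed. AT4G17410, AT5G54040, AT5G48430, AT2G42350, AT2G17710, AT5G40510, AT3G49810 and AT5G44910 rose by between 1.43 and 1.30. AT5G48430 and AT2G42350 were the only 2 of these 15 with a mean above 6 at 0 min. All 15 remained called and positive under all 5 scalings. The largest rises of probe sets unnamed here were 2.28 and 1.72.

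Rises of genes with a symbol were near 2-fold or below. PDF1.2, a defensin and classical jasmonate and ethylene marker, had 5.93, 5.73 and 6.17 at 60 min, against 4.82, 4.92 and 4.62 at 0 min (1.16 ± 0.11, adjusted p = 3.22e-07). The list taken as defensins had 4 of 15 higher and 0 lower, against 26.3% and 20.1% of all probe sets. Its share called higher, 26.7%, was thus close to that over all probe sets. Of these 4, 2 are peptide deformylases caught by their symbols, which leaves PDF1.2 and PDF1.2b (0.62 ± 0.13, on a probe set that can cross-hybridise). PDF1.2 alone of the 15 was called higher under the Bacillus subtilis, hybridization and reference gene scalings. COR15A, a cold-induced protein that protects chloroplast membranes, had 9.72, 9.60 and 9.35 at 60 min, against 8.19, 8.77 and 8.58 at 0 min (1.04 ± 0.15), and COR15B rose by 0.76 ± 0.12. Of the cold list's 18 loci the only other one measured was COR47, 0.30 higher as deposited and at -0.16 with the reference genes. Of these 3 cold genes, COR15A alone was called higher with the reference genes. The 0 min arrays of COR15A spread over 0.58, more than those of most genes named here.

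The other rises with a symbol included enzymes of central metabolism and of protein maturation. ENOC, a cytosolic enolase, had 8.17, 8.16 and 8.04 at 60 min, against 7.17, 7.19 and 7.16 at 0 min (0.95 ± 0.09). NRPB7, a subunit of RNA polymerase II, had 6.89, 6.88 and 6.74 at 60 min, against 5.73, 6.14 and 5.99 at 0 min (0.88 ± 0.09). SPP (0.92 ± 0.08), here the signal peptide peptidase AT2G03120, MAP1B, a methionine aminopeptidase (0.93 ± 0.11), STR18, a sulfurtransferase (1.0 ± 0.10), and POL, a phosphatase of meristem signalling (1.02 ± 0.14), rose by similar amounts. BOB1, a small chaperone (0.88 ± 0.07), IDH-VI, an isocitrate dehydrogenase (0.86 ± 0.10), and ATCES1 (0.85 ± 0.08) closed the list of 15. All of these also remained called as higher under the 4 other scalings.

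Tubulins rose together as deposited: 6 of 7 were called higher and 0 lower, against 26.3% and 20.1% of all probe sets, with a median of 0.53. TUA6, an alpha-tubulin, had 10.73, 10.74 and 10.73 at 60 min, against 10.19, 10.21 and 10.20 at 0 min (0.53 ± 0.07), so its 6 values fall into 2 very tight groups. TUB1 (0.63 ± 0.10), TUB9 (0.60 ± 0.09) and TUA1 (0.56 ± 0.10) rose similarly. All 6 calls were lost under 3 of the 5 scalings: the tubulin median was 0.17 with the Bacillus subtilis controls, 0.23 with the hybridization controls and 0.08 with the reference genes, with 0 members called higher in each and 1 called lower in the last. LSM proteins form the rings that bind RNA ends in decay and splicing. As deposited 4 of 6 rose, against 26.3% of all probe sets, and 1 of 6 rose with the reference genes. They were led by LSM6B (0.88 ± 0.08, with 7.52, 7.58 and 7.43 at 60 min, against 6.70, 6.63 and 6.55 at 0 min). LSM1B, which belongs to the cytoplasmic decay ring alone, fell by 0.26, a call lost without the first array at 60 min (-0.24).

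ATG8 proteins are the ubiquitin-like coat of autophagosomes. Of 10 autophagy genes 6 rose and 2 fell as deposited, against 26.3% and 20.1% of all probe sets, and 1 was called higher under each of the Bacillus subtilis, hybridization and reference gene scalings. The ATG8 genes went in both directions. ATG8H had 6.52, 6.73 and 6.67 at 60 min, against 5.85, 5.85 and 5.62 at 0 min (0.87 ± 0.09), while ATG8E had 6.05, 5.91 and 5.67 at 60 min, against 6.60, 6.65 and 6.66 at 0 min (-0.76 ± 0.13). ATG8D (0.63 ± 0.09) and APG8A (0.52) rose, and ATG8F fell by 0.40. In the exocyst, which tethers secretory vesicles, SEC6 (0.67 ± 0.09) and SEC10 (0.55) were higher and both SEC15 genes lower, SEC15A by 0.83 ± 0.09 and SEC15B by 0.47. The ascorbate peroxidases of the chloroplast, SAPX (0.63 ± 0.08) and TAPX (0.53 ± 0.08), rose among 9 peroxidases, of which 5 rose and 1 fell as deposited. With the Bacillus subtilis, hybridization and reference gene scalings 0 of the 9 peroxidases were called higher, and their median of 0.43 became 0.06, 0.12 and -0.03. Medians of 0.31 for the exocyst, 0.35 for LSM and 0.35 for autophagy became -0.14, -0.10 and -0.11 with the reference genes and -0.05, -0.01 and -0.02 with the Bacillus subtilis controls.

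**Figure D4:**
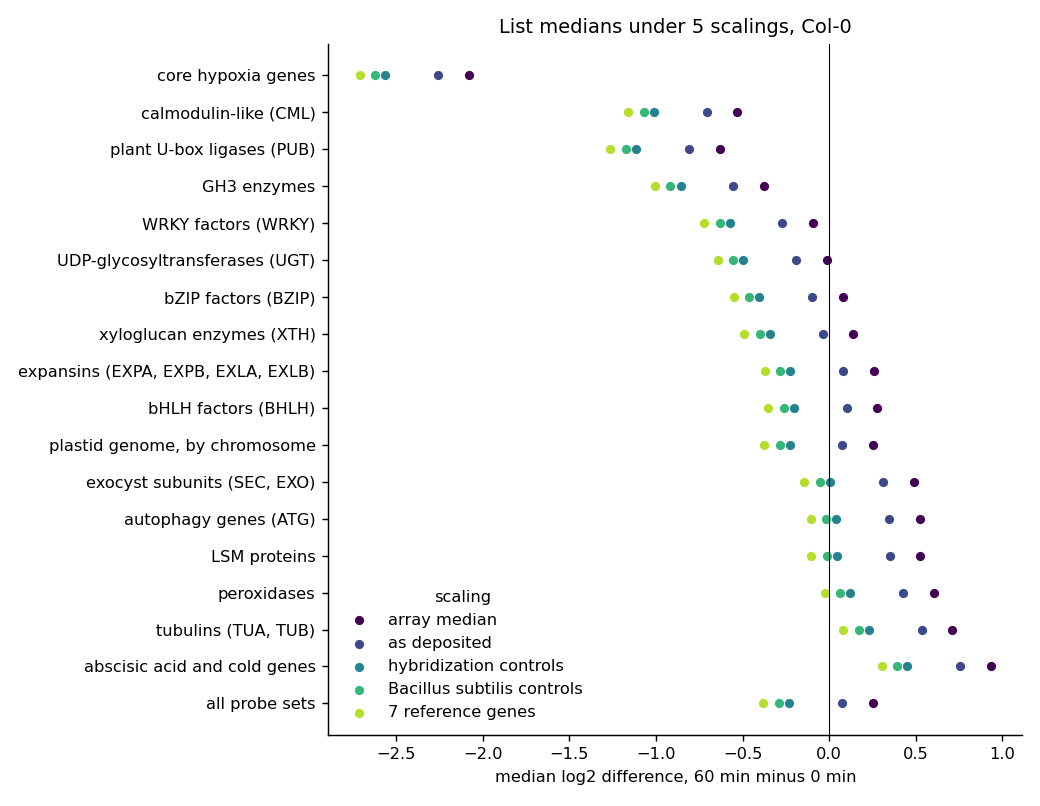
Median log2 difference, 60 min minus 0 min, of 17 gene lists and of all probe sets (rows) under 5 scalings (colours). By construction a scaling shifts all lists by the same amount and keeps their order. Hypoxia, U-box, calmodulin-like, GH3, WRKY and glycosyltransferase lists are below 0 throughout, tubulins and the cold list above 0, and several lists between them change sign.

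Other families are given by their counts, beside 20.1% called lower and 26.3% called higher over all probe sets. Counts lower and higher were 4 and 3 of 15 for tetraspanins, 5 and 5 of 22 for trichome birefringence-like proteins, and 5 and 6 of 29 for serine carboxypeptidase-like proteins. They were 4 and 6 of 20 for beta-glucosidases, 3 and 2 of 11 for RALF-like peptides, and 1 and 2 of 15 for SWEET sugar transporters. Apart from the SWEET genes, with 6.67% lower and 13.3% higher, these counts are near the shares over all probe sets. Of 10 vacuolar sorting genes 4 rose and 0 fell as deposited, while under the Bacillus subtilis and reference gene scalings 0 rose and 4 and 5 fell. Of 8 aldehyde dehydrogenases 2 rose and 0 fell as deposited, and 0 rose and 5 and 6 fell under those scalings. Of 40 MADS-box genes 2 were lower and 5 higher, and only 3 of the 40 were above the median signal. The 989 pseudogenes, of which 9 were above the median signal, had 18 lower and 102 higher, with a median of 0.08.

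Where 1 gene had several probe sets, these gave 180 pairs, and 70.6% of pairs had the same sign. Both members were called in 56 pairs, in the same direction in 49 and in opposite directions in 7. Pairs of 1 gene are not separate items: the 7 probe sets of the mitochondrial gene nad1, singled out after its values were seen, gave 21 of the pairs and 6 of the 7 opposite ones. Without nad1, 74.2% of 159 pairs had the same sign, and 45 of 46 pairs with both called went the same way. Among the 52 pairs with both probe sets above the median signal, 88.5% had the same sign, and 29 of 29 pairs with both called went the same way.

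The xrn3-8 line carries a mutant allele of XRN3, a nuclear 5'-to-3' exoribonuclease, and its 6 arrays are separate from those of Col-0. No probe set was named XRN3 here, so the mutant was not checked by its own gene. Of the 600 genes at least 2-fold lower in Col-0, 586 were also called lower in xrn3-8, against 15.9% of all probe sets. Their median was -1.06 in xrn3-8 and -1.39 in Col-0, but they were chosen by size in Col-0, which by itself favours a smaller value elsewhere. The difference between the genotypes, tested in the same fit, was called for 8.05% of all probe sets and for 245 of these 600, in 237 with the smaller fall in xrn3-8. Falls that were close in both lines included AT5G61590 (-4.47 in xrn3-8 and -4.54 in Col-0), STZ (-2.55 and -2.56) and CML38 (-1.94 and -1.96). EXLA2 fell by 1.81 in xrn3-8 and by 3.01 in Col-0, a difference of 1.2 ± 0.15 (adjusted p = 0.000125).

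Of the 74 genes at least 2-fold higher in Col-0, also chosen by size there, 53 were called higher in xrn3-8, against 24.5% of all probe sets, and 4 were called lower. The difference was called for 36 of the 74, each time with the lower value in xrn3-8. AT5G01700 was the extreme, with a log2 difference of -0.99 in xrn3-8 and 2.72 in Col-0, and AT2G18100 had -0.50 in xrn3-8 and 2.02 in Col-0. AT5G48430 (1.65 in xrn3-8 and 1.42 in Col-0) and AT2G42350 (1.43 and 1.38) were close in both lines.

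**Figure D5:**
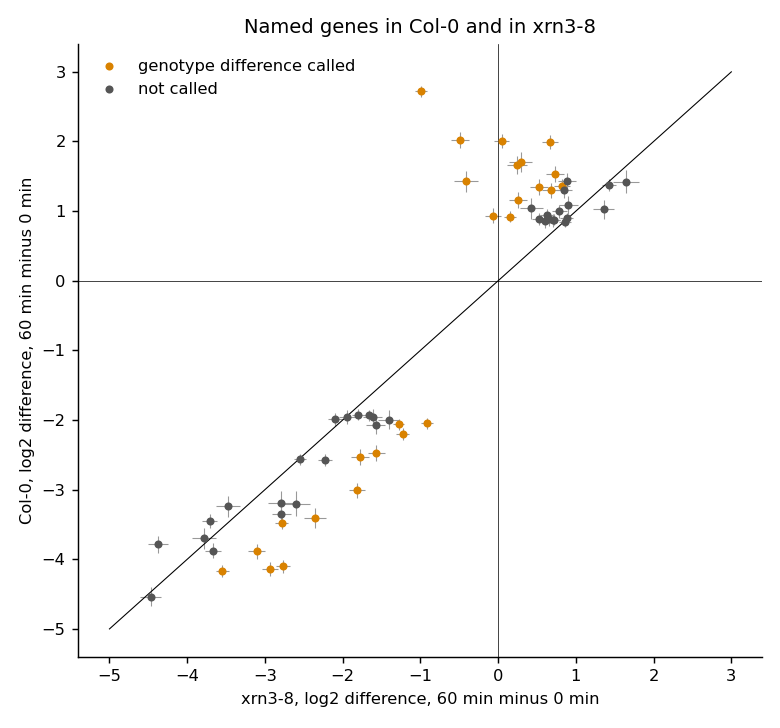
Log2 difference, 60 min minus 0 min, in Col-0 (y axis) against xrn3-8 (x axis) for the 60 genes named by rule; bars are SE and orange marks a called genotype difference. Most falls lie close to or below the diagonal of equal change, and the largest rises of Col-0 lie above it, led by AT5G01700.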

How the data were processed

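The authors deposited 1 table of normalised log2 expression values for 12 arrays, 3 in each of 4 groups; the submitters' processing notes name affy 1.48.0 and limma 3.26.9, and how the values were normalised is not given here. The series describes the arrays of a group as biological replicates. Of 22746 probe sets, 13513 had 1 gene in the platform annotation, 503 several and 8730 are unnamed here; 13436 were matched to the TAIR10.1 gene table. Probe sets were tested in R 4.3.3 with the moderated test of limma 3.58.1 (1 mean per group over all 12 arrays, 8 residual and 7.96 prior degrees of freedom), with no filter on signal, and p-values were adjusted by the Benjamini-Hochberg method over all 22746; a call is an adjusted p under 0.05. Tables and plots were made with pandas 2.3.3 and matplotlib 3.10.9 in Python 3.11.15.

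The comparison and the gene lists were chosen with earlier results of these data known. The genes named by rule are the 15 largest falls and rises of all genes and the 15 largest of genes with a symbol, among called changes without overlap between groups and with a mean above the median signal in 1 group or both. Lists were formed from loci or from symbols of 1 family, so they hold named members only; other genes caught by a symbol are pointed out where known. In 5 scalings the values were used as deposited or centred, array by array, on 27 Bacillus subtilis or 18 hybridization control probe sets, on 7 reference genes, or on the array median. The number of arrays limits the precision. On simulated data of the same size the test recovered 64% of changes of 0.5 log2 and 98% of changes of 1 log2, with 6.36% of its calls false. There only 100 probe sets were changed by each size, whereas 46.3% of probe sets were called here. These rates therefore do not carry over to this comparison. Replicate numbers were not used to pair the arrays in the main fit. Deviations from group means of equally numbered Col-0 arrays correlated at -0.0856, 0.0184 and 0.0747. Those of unequally numbered ones ran from -0.158 to 0.142. With 3 arrays per group these values do not settle whether the numbers mark pairs.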

Additional observations from a re-analysis of the deposited data

Results flagged for a closer look

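For 51 genes named in the text the change after 60 min differed between the genotypes in limma's test of that difference (change in xrn3-8 minus change in Col-0, log2), a call made for 8.05% of all probe sets. Genes were named for their change in Col-0, which favours a smaller change in xrn3-8. Of these 51, 31 are positive values of genes that fell in Col-0. The differences were 1.34 for AT5G01740, 1.21 for AT3G06070, 1.2 for EXLA2, 1.14 for KICP-02, 1.13 for XTH33 and 1.06 for AT5G52020. They were 0.97 for UGT85A2, 0.91 for the brighter probe set of GAT1_2.1, 0.86 for CML41, and 0.82 for PUB43 and UGT88A1. AT5G07580 and GTR1 had 0.78, HAT2 0.75, and CML42 and CRR42 0.72. BZIP28 and AT2G39980 had 0.69, EXLA1 0.70, bHLH121 0.65, TET5 0.64, IQD22 0.63 and AT3G19680 0.62. CYP71B26, LHCB4.2 and SEC15B had 0.59, UGT84A3 0.57, AT5G10040 0.50, GSTU16 0.46, RALFL22 0.42 and ZAP1 0.41.

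Among the genes that rose in Col-0, the difference was -3.71 for AT5G01700, -2.51 for AT2G18100, -1.96 for AT5G39020, -1.84 for AT5G54040 and -1.43 for AT5G22540. It was -1.41 for AT3G26460, -1.33 for AT5G47980, -1.04 for EXPA4, -1.0 for MAP1B, -0.90 for PDF1.2, -0.85 for CYP71B37 and -0.82 for AT5G40510. AT1G68330 had -0.80, SPP -0.77, SWEET17 -0.75, AT5G44910 -0.62, RALFL31 -0.59 and AT2G17710 -0.54. EXPA8, which fell in Col-0, had -0.68, and PYK10, the root marker, which was not called in Col-0, had -0.51.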

How the results depend on the processing

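Most choices of test moved the results little: of 10534 called probe sets as deposited, the replicate block gave 10661, and leaving out 1 array at a time 9337 to 9721 (5137 to 5480 higher, 4200 to 4275 lower, 1168 to 1212 at least 2-fold lower, 116 to 130 at least 2-fold higher). The replicate block changed the call of 1 of the named genes, PSBY, from not called to an adjusted p of 0.0471 in limma's test, and PSBY was also called without the first array at 0 min. Asking for a 2-fold change as well left 1309. The scaling mattered most. Calls under the hybridization controls numbered 6473. Calls higher were 5973 as deposited, 810 with the Bacillus subtilis controls, 478 with the hybridization controls, 419 with the reference genes and 12412 with the array median. Calls lower were 4561 as deposited, 11485 with the Bacillus subtilis controls and 13853 with the reference genes. At least 2-fold lower were 1187 as deposited, and 2256, 2010 and 2652 with the Bacillus subtilis, hybridization and reference gene scalings. At least 2-fold higher were 122 as deposited, 20, 25 and 14 with those scalings and 308 with the array median. Of 65 lists with 3 or more members, 25 had a median below 0 as deposited (22 to 29 leaving out 1 array), 40 without the dimmest 40% of probe sets, 60, 57 and 63 with the 3 control and reference scalings, and 11 with the array median. COR47 turned to -0.0667, -0.00833 and -0.157 with the Bacillus subtilis, hybridization and reference gene scalings. Promoter motifs and protein lengths were not run, as no sequences were used here.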

Other observations

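Some smaller families held single genes that stood apart from their relatives. Tetraspanins are membrane proteins that organise other proteins into domains: TET8, a marker of plant exosomes, had 9.38, 9.22 and 9.26 at 60 min, against 10.01, 9.97 and 10.01 at 0 min (-0.71 ± 0.08 SE), and TET5 fell by 0.97 ± 0.09, while the 3 tetraspanins that rose did so by 0.34 to 0.35. RALF peptides are secreted signals that act through receptor kinases. RALFL33 averaged 10.59 at 60 min and 11.16 at 0 min (-0.57 ± 0.09), RALFL22 fell by 0.43, and RALFL31 rose by 0.81 ± 0.11. SWEET17, a fructose transporter of the vacuole membrane, rose by 0.79 ± 0.09, and SWEET16, which has the same location, fell by 0.40.

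Repair and chaperone genes were among the moderate rises as deposited. Methionine sulfoxide reductases restore oxidised methionine in proteins. As deposited 4 of 5 rose, against 26.3% of all probe sets, and 0 or 1 rose with the Bacillus subtilis, hybridization and reference gene scalings. MSRA5 led with 7.0 at 60 min and 6.38 at 0 min (0.63 ± 0.09). MSRB5 fell by 0.47 ± 0.14, a call lost without the first array at 60 min (-0.38). Both heat shock genes measured rose as deposited, ATHSP22.0 by 0.75 ± 0.13 and Hsp70-2 by 0.46 ± 0.10. Called higher were 1 with the Bacillus subtilis controls, 1 with the hybridization controls and 0 with the reference genes. The clock gene GI, the only measured member of its list, averaged 8.52 at 60 min and 8.85 at 0 min (-0.33 ± 0.09). With the array median it was at -0.15 and not called.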
